A study of Mus musculus with 10 samples.

Results

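The transcripts of 10 genes at the core of mTOR signaling were followed in mouse liver and liver tumors: Mtor, Rptor, Rictor and Mlst8 of the mTOR complexes, Tsc1, Tsc2 and Rheb of the TSC/RHEB switch, the stress-induced inhibitors Sesn1 and Ddit4, and the translation repressor Eif4ebp1. They were picked by symbol, and all 10 were found, each in 1 row, among the 16697 gene entries of the table. RNA-Seq had been performed on normal liver (NL, n = 4), on tumors raised with c-MYC and the empty vector pT3 (c-MYC, n = 3) and on tumors raised with c-MYC and FOXO1AAA, a constitutively active FOXO1 (c-MYC/FOXO1AAA, n = 3). The purpose of the c-MYC/FOXO1AAA group was to see how active FOXO1 alters the molecular features of c-MYC tumors. Both plasmids carried the EF1α promoter and were delivered to hepatocytes by hydrodynamic tail vein injection together with the sleeping beauty transposase, so that all tumors share c-MYC and the transposon system, which NL lacks. All 10 samples are labeled C57BL/6 and WT, whereas the extraction protocol and the methods name FVB normal livers, and the design text of the series names c-MYC/MCL1 tumors and drug treatments that none of these sample labels carry. Age, sex and time after injection are not in the labels, and the labels do not say whether each library came from its own animal, so that p values measure the spread between these samples.

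mTOR is a serine/threonine kinase that works in a pair of complexes. In mTORC1 it is joined by RAPTOR (Rptor), and in mTORC2 by RICTOR, while MLST8 belongs to both. The GTPase RHEB activates mTORC1 at the lysosome and is switched off by the TSC1/TSC2 complex, whose activity AKT restrains and REDD1 (Ddit4) promotes. Sestrins hold mTORC1 back when amino acids are scarce through the GATOR complexes, and active mTORC1 phosphorylates 4E-BP1 (Eif4ebp1), which then releases the cap-binding protein eIF4E. In the liver the pathway couples feeding and insulin to protein and lipid synthesis. FOXO factors, which AKT inactivates, are known to induce Sesn and Rictor transcripts in several tissues.

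The libraries held 13.12 to 20.55 M reads in listed genes. Values are FPKM, that is, fragments scaled to gene length and to a library size, and the library sizes had been rescaled by factors of 0.649 to 0.684 in NL, 1.256 to 1.295 in c-MYC and 1.454 to 1.502 in c-MYC/FOXO1AAA. All 10 members and 14017 genes in all passed the filter of 1 FPKM in at least 3 libraries. Foxo1 itself was 7.14 ± 0.532 FPKM (mean ± SD, n = 4) in NL, 5.63 ± 0.721 (n = 3) in c-MYC and 83.1 ± 12.8 (n = 3) in c-MYC/FOXO1AAA. The mouse Myc row ran against the injected gene, at 11.2 ± 8.17 FPKM in NL, 0.771 ± 0.254 in c-MYC and 0.983 ± 0.118 in c-MYC/FOXO1AAA, and it was called lower than NL in both tumors (log2 fold changes -3.61 and -3.21, limma adjusted p 0.000219 and 0.000433). This row therefore does not show the c-MYC transgene, whose species is not given in the sources used here, and the c-MYC label was not checked by it. The summed FPKM of 8 hepatocyte markers was 75050 to 83100 in NL, 3375 to 5294 in c-MYC and 835 to 1494 in c-MYC/FOXO1AAA, so that the tumors held far less hepatocyte transcript than these separate normal livers. In such bulk tissue, fewer cells of a type and less RNA per cell cannot be told apart.

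Promoter sequence is shown for the members that the comparison of the tumors turns on, Sesn1 and Ddit4, and for the lone other motif found. RefSeq windows on GRCm38.p6, from 250 bases before to 50 bases after each start, were found for 9 of the 10 members, in 10 windows because Sesn1 has a pair of starts. They were searched on both strands for the forkhead element GTAAACA, the E-box CACGTG bound by MYC/MAX and the amino acid response motif TGATGNAA. Capitals mark a match, each sequence reads 5′ to 3′ along its gene, and at most 30 bases of an annotated exon are printed.
Sesn1, first start, chr10:41810584-41810613, plus strand: agaaccttctacTGTTTACcagccttttgg
Sesn1, second start, chr10:41887189-41887468, plus strand: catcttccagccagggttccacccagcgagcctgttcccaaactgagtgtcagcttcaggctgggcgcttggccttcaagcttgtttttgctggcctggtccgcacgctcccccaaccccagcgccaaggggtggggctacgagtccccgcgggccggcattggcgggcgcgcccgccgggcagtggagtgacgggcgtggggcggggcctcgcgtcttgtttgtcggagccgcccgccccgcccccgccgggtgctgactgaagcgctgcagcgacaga
Ddit4, chr10:59951805-59952020, minus strand: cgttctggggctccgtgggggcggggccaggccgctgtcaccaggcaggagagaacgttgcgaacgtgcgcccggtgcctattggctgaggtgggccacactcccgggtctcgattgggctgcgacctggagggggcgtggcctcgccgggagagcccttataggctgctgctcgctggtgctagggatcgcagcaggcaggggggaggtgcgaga
Rheb, chr5:24842440-24842469, minus strand: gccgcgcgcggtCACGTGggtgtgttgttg
The forkhead element was present once, on the reverse strand (TGTTTAC) at base 23 after the first start of Sesn1, inside the first exon of an annotated transcript that begins upstream. Of 32851 mouse promoter windows of the same length, 3.65% hold it. The E-box was present once, at base -96 of Rheb, and 7.15% of all windows hold it. This site lies within the annotated gene, whose end at 24842624 is upstream of it, and the window begins inside an annotated exon. No member window held TGATGNAA, against 3.97% of all windows. The letters of these windows say nothing of sites farther away or of whether a factor was bound.

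Levels were compared between genes first, because the gene length behind an FPKM value sets its height. For each member a single length returned whole reads from the deposited values in all 10 libraries, and it was the length of an annotated transcript (GENCODE M21, GRCm38). For Mtor (chromosome 4, 148448611 to 148557683) it was 1003 bp, where the longest coding transcript has 8564 bp. For Tsc2 (chromosome 17, 24595816 to 24632630) it was 782 bp, that of a retained-intron transcript, against 6266 bp for the longest coding one. With the longest coding transcript the levels of Mtor and Tsc2 are 8.54 and 8.01 times lower than deposited, that of Sesn1 is 1.465 times lower (3809 bp in place of 2600 bp), and the others move by at most 1.154 times. Fold changes of a gene between groups do not depend on its length.

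Per length of the longest coding transcript, the order in NL was Eif4ebp1 (39.3 ± 5.44 FPKM, SD, n = 4), Rheb (39.0 ± 3.22), Rptor (10.1 ± 0.554), Tsc2 (9.54 ± 1.01), Mtor (7.17 ± 0.835), Sesn1 (5.01 ± 0.772), Tsc1 (5.01 ± 0.317), Ddit4 (3.63 ± 0.989), Rictor (2.53 ± 0.289) and Mlst8 (1.65 ± 0.271). The libraries of Eif4ebp1 and Rheb overlapped, as did those of Rptor and Tsc2, of Sesn1 and Tsc1, and of Ddit4 and Rictor, so these neighbors are not separated by their spread. In c-MYC, Eif4ebp1 (65.3 ± 6.22, SD, n = 3) and Rheb (49.4 ± 2.91) still led, and Ddit4 had moved from rank 8 to rank 3 (14.9 ± 1.90). In c-MYC/FOXO1AAA, Ddit4 stood first (104.5 ± 16.25, SD, n = 3), ahead of Eif4ebp1 (77.4 ± 6.56), Rheb (47.4 ± 2.07) and Sesn1 (33.6 ± 4.54), without overlap between these 4. The kinase and its partners stayed between 2.76 FPKM (Mlst8) and 8.46 FPKM (Tsc2) there. Mtor and Tsc2, which rank 2 and 1 in NL by the deposited values, rank 5 and 4 on this scale.

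**Figure D1:**
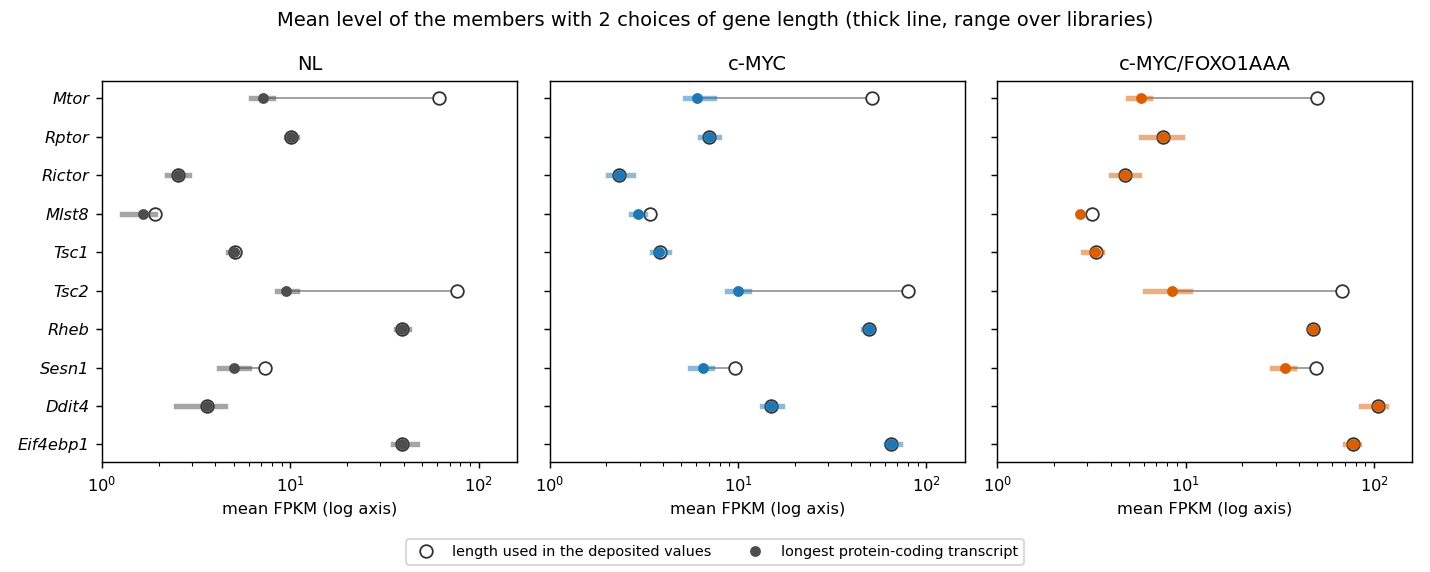
Mean FPKM (log axis) of the 10 members in NL (n = 4), c-MYC (n = 3) and c-MYC/FOXO1AAA (n = 3). Open circles use the gene length behind the deposited values, filled circles that of the longest coding transcript, and thick lines span the libraries on the latter scale. Mtor and Tsc2 shift by 8.54 and 8.01 times, and the filled circles of Ddit4 and Sesn1 lie farther right in c-MYC/FOXO1AAA than in NL.

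Members were then compared between groups with limma's treat, which asks for a change above 1.5-fold and adjusts over all 14017 genes. In c-MYC relative to NL, 1 of the 10 members was higher (Ddit4) and 0 were lower, against 24.5% (higher) and 23.6% (lower) of all genes. With FOXO1AAA relative to c-MYC alone, 2 were higher (Ddit4 and Sesn1) and 0 lower, against 15.9% and 12.7% of all genes. In c-MYC/FOXO1AAA relative to NL, 3 were higher (Ddit4, Sesn1 and Eif4ebp1) and 0 lower, against 31.2% and 26.6%. The share of members called higher was thus below or near that of all genes. Each pair of these comparisons shares the libraries of 1 group.

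The members changed less at the median than the genes at large. Their median absolute log2 fold change was 0.39, 0.23 and 0.68 in the 3 comparisons, where all genes stood at 0.98, 0.59 and 1.23. Their median signed change was 0.20, 0.02 and 0.52, against 0.08, 0.03 and 0.21 for all genes. The groups did not overlap for 6 members in c-MYC relative to NL (4 higher, 2 lower), for 3 with FOXO1AAA relative to c-MYC alone (3 higher) and for 8 in c-MYC/FOXO1AAA relative to NL (6 higher, 2 lower). Over all genes the shares without overlap were 73.9%, 63.4% and 80.1%. All log2 values rest on the rescaled libraries. If every library is given the same FPKM total instead, the median of all genes moves from 0.08 to 1.01 in c-MYC relative to NL, from 0.03 to 0.20 between the tumors and from 0.21 to 1.31 in c-MYC/FOXO1AAA relative to NL, and of the called genes 78.8%, 63.6% and 79.5% are then higher, in place of 51.0%, 55.5% and 54.0%. Changes below are therefore read relative to the other genes, and signs that turn are named.

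**Figure D2:**
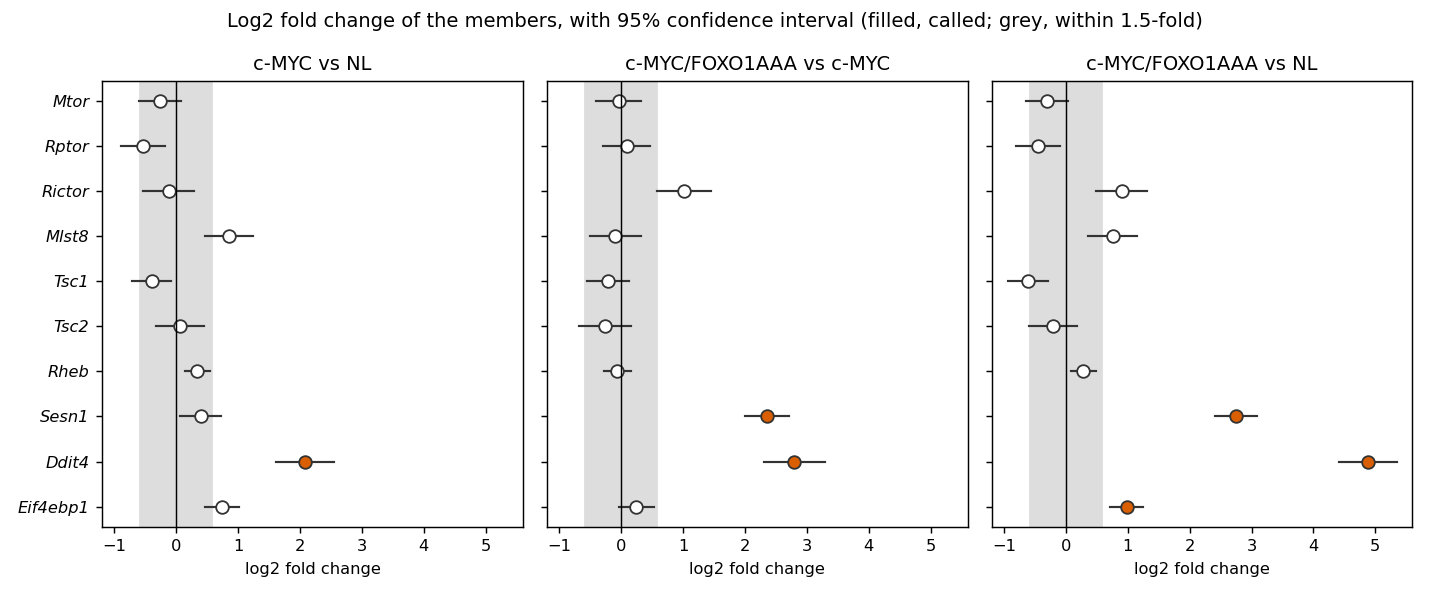
Log2 fold change of each member (points) with its 95% confidence interval (lines) in the 3 comparisons. Filled points passed limma treat at an adjusted p under 0.05, and the grey band marks changes within 1.5-fold. Ddit4 and Sesn1 stand apart from the other members between the tumors, at 2.80 and 2.36, and the interval of Rictor, at 1.02, starts at 0.59, at the edge of the band.

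Ddit4 (chromosome 10, 59949669 to 59951834), which encodes REDD1, was higher at both steps. It stood at 4.403, 2.49, 4.50 and 3.12 FPKM in NL, at 17.1, 13.4 and 14.3 in c-MYC and at 115.5, 112.1 and 85.8 in c-MYC/FOXO1AAA. The 3 groups did not overlap, and c-MYC/FOXO1AAA 3 was the lowest of its group. The NL libraries held only 40 to 84 reads of Ddit4. In c-MYC its log2 fold change relative to NL was 2.08 (adjusted p 6.09e-05 by limma, SE 0.21), or 4.22-fold. In c-MYC/FOXO1AAA it was higher than in c-MYC by a further 2.80 (adjusted p 1.1e-05 by limma, SE 0.22), or 6.97-fold. It stood there 29.4-fold above NL (log2 fold change 4.88, adjusted p 1.53e-08 by limma, SE 0.21). Each of the 3 calls held under all 23 alternatives.

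Sesn1 (chromosome 10, 41809935 to 41908424) encodes sestrin 1, a leucine-regulated brake on mTORC1. Its NL libraries held 8.82, 6.13, 6.94 and 7.46 FPKM and its c-MYC libraries 10.04, 10.6 and 8.15, so that the groups overlapped and the log2 fold change of 0.39 (adjusted p 1 by limma, SE 0.15) did not pass. With FOXO1AAA the libraries held 54.9, 51.0 and 41.9 FPKM, all above every other library. The rise over c-MYC was 2.36 on the log2 scale (adjusted p 5.19e-06 by limma, SE 0.16), or 5.13-fold, and over NL 2.75 (adjusted p 2e-07 by limma, SE 0.15), or 6.73-fold. Both calls held under all 23 alternatives. In c-MYC relative to NL, however, Sesn1 was called with equal FPKM totals (1.32, limma adjusted p 0.000785) and without a fold-change threshold (limma adjusted p 0.0363). Whether its increments differ from those of Ddit4 was not tested.

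Over the 10 libraries, the 3 tested genes whose centered log2 values lay closest to those of Sesn1 were Ssbp2, Foxp1 and Wipf1, with root mean square differences of 0.18, 0.20 and 0.20. Foxp1, a forkhead factor, ran from 3.00 ± 0.290 FPKM (SD, n = 4) in NL to 4.95 ± 0.924 (n = 3) in c-MYC and 22.3 ± 2.33 (n = 3) in c-MYC/FOXO1AAA. Closest to Ddit4 were Tbc1d4, Selenon and Ift57, at 0.27, 0.30 and 0.33. Tbc1d4, an AKT substrate that controls GLUT4 traffic, ran from 0.560 ± 0.0762 to 1.91 ± 0.438 and 15.4 ± 2.30 FPKM. These likenesses are descriptions of shared group levels.

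Some markers of other cell types also differed between the tumors. All 6 stellate cell and fibroblast markers had higher means with FOXO1AAA, and their summed FPKM was 77.2 to 98.8 in NL, 7.01 to 23.8 in c-MYC and 299 to 403 in c-MYC/FOXO1AAA. Between the tumor groups the means went from 4.59 to 235.7 FPKM for Dcn, from 0.916 to 62.7 for Des, from 2.47 to 13.95 for Pdgfrb, from 8.26 to 25.1 for Col1a1 and from 0.102 to 5.99 for Reln. Lrat went from 0.0967 to 0.278, against 3.85 in NL. All 5 erythroid markers likewise had higher means with FOXO1AAA, although Hba-a2 had at most 3 reads in every c-MYC library. Of the hepatocyte markers, 7 of 8 had lower means, and the remaining lists were mixed. The 6 endothelial markers summed to 45.2 to 60.7 in NL, 9.81 to 17.3 in c-MYC and 26.3 to 41.0 in c-MYC/FOXO1AAA, with 3 of 6 higher between the tumors. Cdh5 went from 4.61 to 25.95 FPKM there, whereas Pecam1 went from 5.70 to 3.59, Kdr from 1.76 to 0.991 and Stab2 from 0.388 to 0.226. The 4 of 6 lymphocyte markers with a row summed to 3.12 to 5.595, 3.21 to 4.55 and 9.37 to 13.3. Of these, Cd79a went from 0.217 to 9.52 FPKM and Cd3g from 0.361 to 0.457, while Ptprc went from 1.86 to 1.04 and Nkg7 from 1.36 to 0.407. The 6 Kupffer cell and macrophage markers summed to 190 to 338, 63.8 to 99.6 and 28.2 to 49.0, with 3 of 6 higher between the tumors. Cd5l went from 64.2 to 10.8 FPKM, but Clec4f from 4.66 to 18.1, Vsig4 from 0.577 to 2.09 and Marco from 0.756 to 1.34. Proliferation markers summed to 2.96 to 19.8, 254 to 293 and 187 to 222, biliary markers to 20.1 to 27.9, 17.6 to 32.4 and 30.2 to 38.1 (Sox9 had at most 3 reads in every c-MYC library), and erythroid markers to 1117 to 2218, 131 to 234 and 215 to 532. The part of these cells in the changes of Sesn1, Ddit4 and Rictor was not tested.

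**Figure D3:**
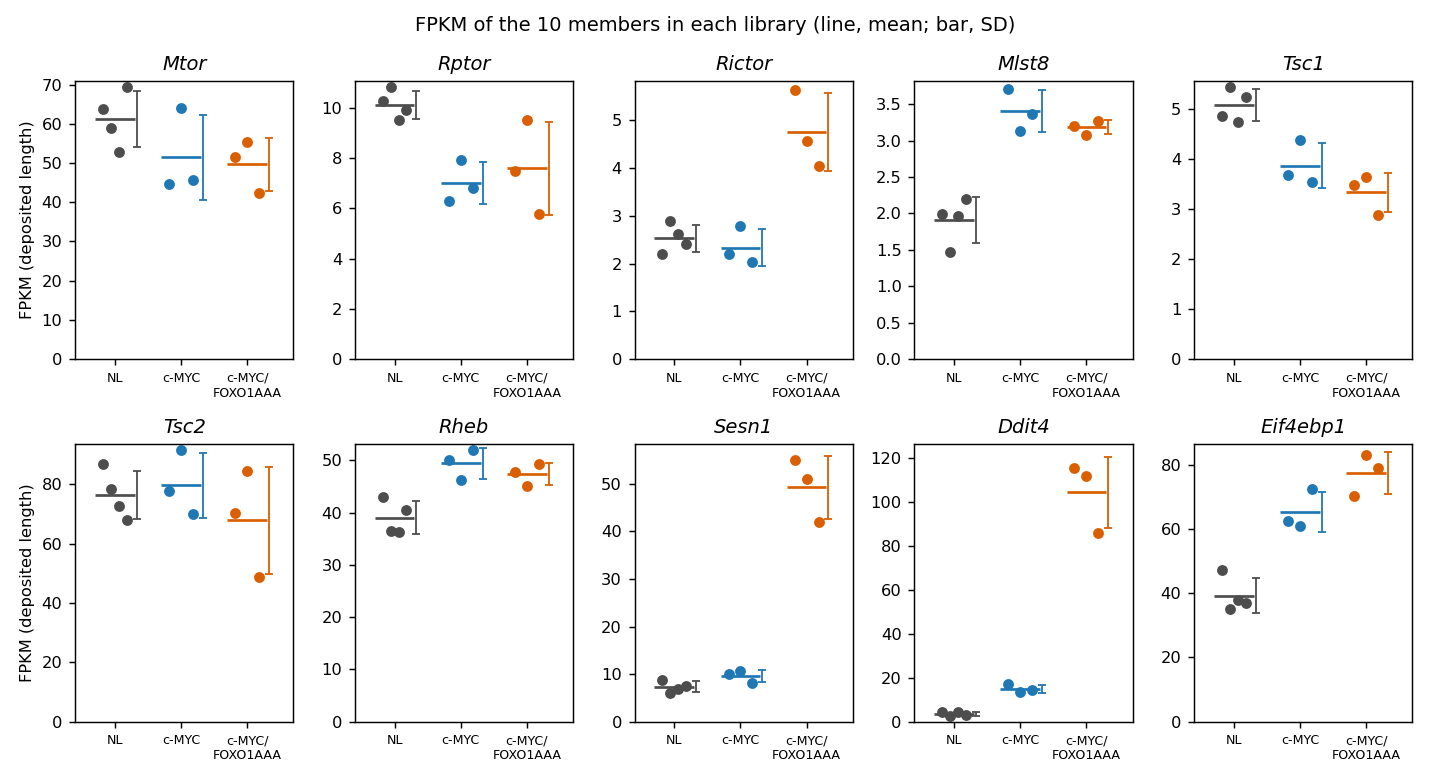
FPKM of each member in every library (points), with the group mean (line) and SD (bar), for NL (n = 4), c-MYC (n = 3) and c-MYC/FOXO1AAA (n = 3), using the deposited gene lengths. Each panel has its own axis from 0. Ddit4 separates all 3 groups, Sesn1 separates c-MYC/FOXO1AAA from the others, and Mtor, Tsc2 and Rheb differ by small steps.

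Among the complex subunits, none passed the test in any of the 3 comparisons. Mtor, the kinase itself, held 63.8, 58.8, 52.7 and 69.4 FPKM in NL, 44.7, 64.0 and 45.7 in c-MYC and 51.4, 55.3 and 42.2 in c-MYC/FOXO1AAA on the deposited length. All groups overlapped. Its log2 fold changes were -0.26 (95% confidence interval -0.60 to 0.08) in c-MYC relative to NL and -0.04 (-0.40 to 0.32) between the tumors, and the first became 0.66 and the second 0.13 with equal FPKM totals. The second also turned without c-MYC 2 (0.13) or without c-MYC/FOXO1AAA 3 (0.07).

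Rptor (chromosome 11, 119602905 to 119899576), the scaffold of mTORC1, held 10.3, 10.8, 9.51 and 9.90 FPKM in NL, 6.31, 7.93 and 6.80 in c-MYC and 7.47, 9.51 and 5.78 in c-MYC/FOXO1AAA. Every tumor library lay below every NL library, but c-MYC/FOXO1AAA 2 (9.507) and NL 3 (9.508) all but touched. The log2 fold changes relative to NL were -0.53 (adjusted p 0.873 by limma, SE 0.16) in c-MYC and -0.44 (adjusted p 0.993 by limma, SE 0.16) in c-MYC/FOXO1AAA, and they became 0.39 and 0.65 with equal FPKM totals. Without a fold-change threshold both were called lower (limma adjusted p 0.0114 and 0.0255). Between the tumors it differed by 0.09 (95% confidence interval -0.29 to 0.47), a sign that turned with an equal median (-0.08), quantile normalization (-0.02) and without c-MYC/FOXO1AAA 2 (-0.09).

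Rictor (chromosome 15, 6708379 to 6800401), the scaffold of mTORC2, behaved otherwise. It held 2.21, 2.88, 2.62 and 2.41 FPKM in NL, 2.20, 2.78 and 2.03 in c-MYC and 5.64, 4.57 and 4.04 in c-MYC/FOXO1AAA. Those last 3 libraries lay above all others, and NL and c-MYC overlapped. The log2 fold change between the tumors was 1.02 (95% confidence interval 0.59 to 1.46), or 2.03-fold, which did not pass the threshold (adjusted p 0.0809 by limma, SE 0.20). It passed without a fold-change threshold (0.00115), with equal FPKM totals (0.0344), without c-MYC 2 (0.0404) and with the length trend removed (0.0486), and its adjusted p ranged up to 1 over the others. Relative to NL the change was 0.90 (adjusted p 0.0952 by limma, SE 0.18), and it was called with equal FPKM totals (2.0, limma adjusted p 3.33e-05) and without a fold-change threshold (limma adjusted p 0.000901). In c-MYC it was -0.12 relative to NL and 0.81 with equal FPKM totals.

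Mlst8 (chromosome 17, 24473551 to 24479078), shared by both complexes, was thinly covered, with 45 to 304 reads per library. Only Ddit4, with 40 to 84 reads in NL, had a library with fewer. It held 1.99, 1.47, 1.97 and 2.20 FPKM in NL, 3.71, 3.13 and 3.36 in c-MYC and 3.21, 3.08 and 3.27 in c-MYC/FOXO1AAA. All tumor libraries lay above all NL libraries. The log2 fold changes of 0.85 (adjusted p 0.155 by limma, SE 0.18) and 0.76 (adjusted p 0.265 by limma, SE 0.18) relative to NL did not pass, and both were called without a fold-change threshold or with equal FPKM totals (1.78 and 1.86). Between the tumors it differed by -0.09, and by 0.08 with equal totals. Its exons share 997 bp with Bricd5 on the opposite strand, and since it is not stated whether counting used strand, reads of this pair cannot be told apart. The same holds for 693 bp between Tsc2 and Pkd1 and for 84 bp between Rptor and Rptoros.

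In the TSC/RHEB switch none of the 3 genes passed the test as planned, and each passed under some alternative. Tsc1 (chromosome 2, 28641228 to 28691167), the stabilizing subunit, held 4.87, 5.44, 4.75 and 5.25 FPKM in NL, 3.68, 4.38 and 3.54 in c-MYC and 3.48, 3.64 and 2.88 in c-MYC/FOXO1AAA. All tumor libraries were below the NL libraries. The log2 fold changes relative to NL were -0.40 (adjusted p 1 by limma, SE 0.14) and -0.61 (adjusted p 0.591 by limma, SE 0.14), and with equal FPKM totals 0.53 and 0.49. The second was called lower with quantile normalization (-0.96, limma adjusted p 0.0315), with the length trend removed (-0.83, limma adjusted p 0.0443) and without a fold-change threshold (limma adjusted p 0.00226), and the first without a fold-change threshold (limma adjusted p 0.0274).

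Tsc2, the subunit with the GTPase-activating domain, held 86.8, 78.3, 72.8 and 67.8 FPKM in NL, 77.8, 91.5 and 69.8 in c-MYC and 70.2, 84.5 and 48.7 in c-MYC/FOXO1AAA on the deposited length. The groups overlapped in every comparison. Its log2 fold change was 0.06 (95% confidence interval -0.33 to 0.45) in c-MYC relative to NL, -0.26 (-0.68 to 0.16) between the tumors and -0.20 (-0.59 to 0.19) in c-MYC/FOXO1AAA relative to NL. The first turned to -0.01 with an equal median and to -0.05 without c-MYC 2, and with equal FPKM totals it was 0.99 and called higher (limma adjusted p 0.0431). That against NL with FOXO1AAA turned to 0.89 with equal FPKM totals, to 0.36 with quantile normalization and to 0.02 without c-MYC/FOXO1AAA 3.

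Rheb (chromosome 5, 24802823 to 24842624) encodes the GTPase that TSC2 switches off. Its libraries held 42.9, 36.5, 36.3 and 40.5 FPKM in NL, 50.03, 46.2 and 52.0 in c-MYC and 47.8, 45.1 and 49.2 in c-MYC/FOXO1AAA. Tumor libraries lay above all NL libraries, yet the log2 fold changes of 0.34 (95% confidence interval 0.14 to 0.55) and 0.28 (0.08 to 0.49) lie within 1.5-fold as a whole. With equal FPKM totals they were 1.27 and 1.38 and both were called (limma adjusted p 1.49e-05 and 3.08e-06), as they were without a fold-change threshold (limma adjusted p 0.00598 and 0.0153). Between the tumors it differed by -0.06 (-0.28 to 0.16), a sign that turned with equal FPKM totals (0.11), quantile normalization (0.16) and the length trend removed (0.03).

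Eif4ebp1 (chromosome 8, 27260329 to 27276674), the gene of 4E-BP1, was higher in c-MYC/FOXO1AAA than in NL. It held 47.2, 34.96, 38.0 and 36.9 FPKM in NL, 62.5, 60.9 and 72.4 in c-MYC and 70.2, 83.1 and 78.9 in c-MYC/FOXO1AAA. Both tumor groups lay above NL and overlapped each other. The log2 fold change relative to NL was 0.74 (adjusted p 0.208 by limma, SE 0.12) in c-MYC and 0.99 (adjusted p 0.00734 by limma, SE 0.12), or 1.98-fold, in c-MYC/FOXO1AAA, where it was called. That call was lost with an equal median (0.75, limma adjusted p 0.118) and with a 2-fold threshold (limma adjusted p 0.935). In c-MYC it was called without NL 1, the highest NL library (0.83, limma adjusted p 0.0463), as well as with quantile normalization (0.94, limma adjusted p 0.00777), with equal FPKM totals (1.67) and without a fold-change threshold. The difference between the tumors was 0.25 (95% confidence interval -0.04 to 0.53). The genes closest to it over the 10 libraries were Nap1l4, Ppp4c and Tsr2, with root mean square differences of 0.086, 0.087 and 0.090. Of these, Ppp4c, the catalytic subunit of protein phosphatase 4, ran from 44.6 ± 4.51 FPKM (SD, n = 4) to 73.1 ± 6.21 (n = 3) and 82.3 ± 4.33 (n = 3).

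Ratios of partner genes within a library do not depend on a scaling factor of that library, so 4 of them were tested between tumor tissue (n = 6) and NL (n = 4) by exact permutation over all 210 splits, 2-sided, with Benjamini-Hochberg adjustment over the 4. Relative to Rptor, Rictor was higher in the tumors by 0.88 on the log2 scale (exact p = 0.019, adjusted p = 0.019). The log2 ratio was -2.22, -1.91, -1.86 and -2.04 in NL, -1.52, -1.51 and -1.75 in c-MYC and -0.40, -1.06 and -0.52 in c-MYC/FOXO1AAA. The 3 groups did not overlap, with means of -2.01, -1.59 and -0.66. By group the differences were 0.41 for c-MYC minus NL (exact p = 0.0286), 0.93 for c-MYC/FOXO1AAA minus c-MYC (exact p = 0.1) and 1.35 for c-MYC/FOXO1AAA minus NL (exact p = 0.0286).

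The other partner ratios differed as well between tumor tissue and NL. Tsc1 relative to Tsc2 was lower by 0.43 (-0.43, exact p = 0.00952, adjusted p = 0.0127), with NL libraries from -4.16 to -3.69, c-MYC libraries from -4.40 to -4.30 and c-MYC/FOXO1AAA libraries from -4.54 to -4.08. NL and c-MYC/FOXO1AAA overlapped. The 6 tumor libraries in this test are those of both tumor groups together. By group the Tsc1/Tsc2 differences were -0.45 for c-MYC minus NL (exact p = 0.0571) and -0.41 for c-MYC/FOXO1AAA minus NL (exact p = 0.0857). Eif4ebp1 relative to Eif4e, the gene of the protein that 4E-BP1 binds, was lower (-0.43, exact p = 0.00476, adjusted p = 0.00952), at -0.84 to -0.53 in NL, -1.40 to -1.14 in c-MYC and -1.23 to -0.96 in c-MYC/FOXO1AAA. Eif4ebp1 relative to its paralogue Eif4ebp2 was higher by 1.89 (exact p = 0.00476, adjusted p = 0.00952), at -3.33 to -3.03 in NL, -1.69 to -1.25 in c-MYC and -1.40 to -1.03 in c-MYC/FOXO1AAA. In both Eif4ebp1 ratios the tumors did not overlap NL, and the tumor groups overlapped each other. The smallest exact p that these designs allow is 0.00476 for 6 against 4, 0.0286 for 4 against 3 and 0.1 for 3 against 3. Of the 12 exact tests between single groups none passed after adjustment, with adjusted p = 0.0572 at the lowest. Those of 3 against 3 could not have passed, yet they count in the adjustment, so no conclusion is drawn from this. Quantile normalization, which changes values within a library by rank, moved the Tsc1/Tsc2 difference to -1.06 and the Eif4ebp1/Eif4e difference to -0.66.

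**Figure D4:**
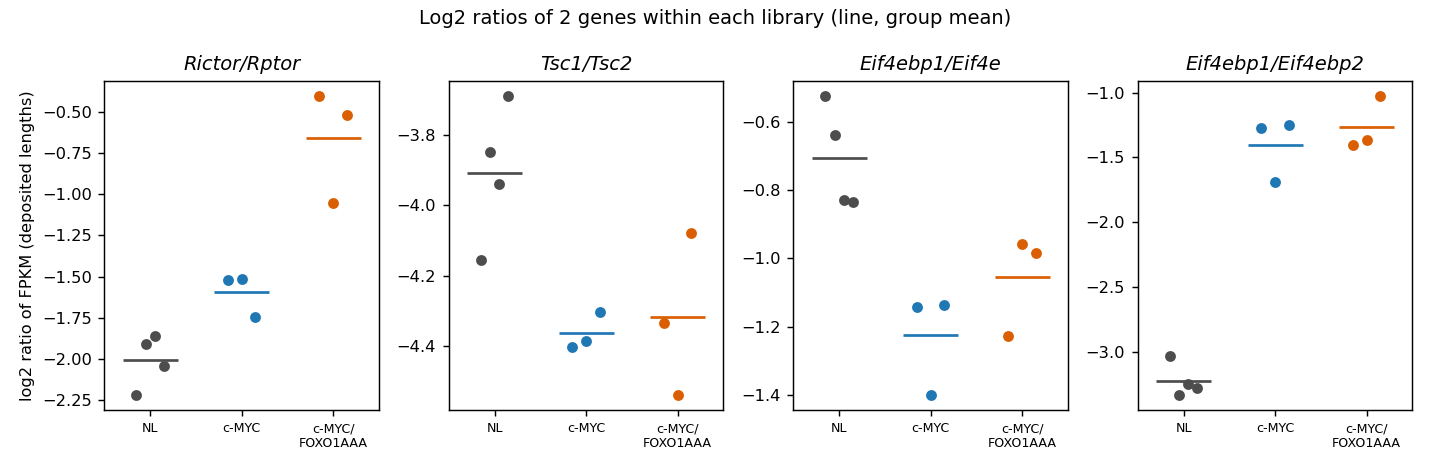
Log2 ratio of FPKM of 2 genes within each library (points, with group means as lines), for NL (n = 4), c-MYC (n = 3) and c-MYC/FOXO1AAA (n = 3), on the deposited lengths. Rictor/Rptor climbs from -2.01 over -1.59 to -0.66, and Eif4ebp1/Eif4ebp2 separates NL from both tumor groups. The height of a ratio depends on the gene lengths used, the difference between groups does not.

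The members with long transcripts deviated in the same direction in each c-MYC library and in c-MYC/FOXO1AAA 1 and 3. In every NL library their signs were mixed, as with Rictor (-0.19) and Tsc2 (0.19) in NL 1. In c-MYC/FOXO1AAA 2, Rictor lay at -0.04 while Rptor and Tsc2 lay at 0.36 and 0.35. In c-MYC 2, Mtor, Rptor, Rictor, Tsc1 and Tsc2 lay 0.18 to 0.34 above their group means on the log2 scale. There the 1596 genes of at least 6000 bp had a median deviation of 0.19, and the 3291 genes under 2000 bp one of -0.12. In c-MYC/FOXO1AAA 3 the same 5 members lay below their group means, from -0.20 to -0.44, with medians of -0.11 for long and 0.09 for short genes. Between groups, genes of at least 6000 bp had a median log2 fold change of 0.24 in c-MYC relative to NL, and short genes one of -0.10. Whether the length of the transcripts had a part in these deviations was not tested.

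Of the paralogues of the stress inhibitors, Sesn3, another sestrin, and Ddit4l rose between the tumors. Sesn3 held 3.57, 5.55, 4.42 and 3.88 FPKM in NL, 2.51, 3.75 and 1.93 in c-MYC and 16.7, 16.0 and 14.6 in c-MYC/FOXO1AAA, so that it rose by 2.58 on the log2 scale between the tumors (adjusted p 3.56e-05 by limma, SE 0.24). In c-MYC relative to NL it was not called (-0.71, limma adjusted p 0.478, and 0.22 with equal FPKM totals). Sesn2 did not pass, with 0.86 (limma adjusted p 0.179) and -0.31 (limma adjusted p 1). Ddit4l, the gene of REDD2, held 29.1, 39.9 and 44.1 FPKM in c-MYC/FOXO1AAA but only 2 to 4 reads per library in c-MYC (0.510 to 0.754 FPKM). Its log2 fold change of 5.90 (adjusted p 2.57e-07 by limma, SE 0.31) therefore depends on the prior count. In c-MYC relative to NL, where it held 4 to 9 reads, Ddit4l was lower (-1.30, limma adjusted p 0.0363), a call that 11 of 23 alternatives lost, among them those without NL 3, NL 4, c-MYC 1, c-MYC 2 or c-MYC/FOXO1AAA 2. Thus Sesn1, Sesn3 and both REDD genes were called higher with FOXO1AAA than without it, and Sesn2 was not.

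In all, 72 other genes of the pathway were followed in 8 lists, and all 72 passed the filter. Against NL, c-MYC had 17 of them called higher and 11 lower, and c-MYC/FOXO1AAA had 20 called higher and 14 lower. Between the tumors 12 were called higher and 7 lower with FOXO1AAA. These are 23.6% and 15.3%, 27.8% and 19.4%, and 16.7% and 9.72% of the 72, where all genes had 24.5% and 23.6%, 31.2% and 26.6%, and 15.9% and 12.7%. Their median log2 fold changes were 0.15, -0.00047 and 0.24, near those of all genes.

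Of 8 further complex subunits, 2 were higher and 1 lower in c-MYC, against 24.5% and 23.6% of all genes. Telo2, a chaperone factor for mTOR assembly, rose by 2.42 (adjusted p 7.9e-07 by limma, SE 0.14) and the mTORC2 subunit gene Prr5 by 1.64 (adjusted p 5.67e-05 by limma, SE 0.15). Deptor, an inhibitor that binds mTOR in both complexes, went down from 58.2 ± 3.05 FPKM in NL (SD, n = 4) to 17.4 ± 1.11 (n = 3) in c-MYC and 6.31 ± 0.753 (n = 3) in c-MYC/FOXO1AAA, with log2 fold changes of -1.74 (limma adjusted p 2.07e-06) and -1.47 (limma adjusted p 4.66e-05). Between the tumors the related mTORC2 subunit genes went in opposite directions. Prr5 fell from 20.2 ± 2.23 to 5.47 ± 1.001 FPKM (log2 fold change -1.90, limma adjusted p 3.54e-05), while Prr5l rose from 1.14 ± 1.11 to 5.55 ± 0.936 FPKM (log2 fold change 2.71, limma adjusted p 0.00734).

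Of the 2 TSC and RHEB partners, Rhebl1, a RHEB paralogue, was higher at both steps. Its mean was 1.70 ± 0.289 FPKM (SD, n = 4) in NL, at 9 to 14 reads per library, 4.11 ± 0.680 (n = 3) in c-MYC and 19.7 ± 3.21 (n = 3) in c-MYC/FOXO1AAA, with log2 fold changes of 1.28 (limma adjusted p 0.00514) and 2.26 (limma adjusted p 3.84e-05). Its deposited length of 810 bp belongs to 1 of 9 annotated transcripts.

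The amino acid arm, 14 genes of the GATOR complexes and nutrient sensors and 13 of the RAG, LAMTOR and FLCN group, held 4 calls each in c-MYC. Of all genes, 24.5% were called higher there and 23.6% lower. Of the GATOR and sensor genes, Mios (0.97, limma adjusted p 0.0319) and Depdc5 (0.93, limma adjusted p 0.0409) were higher and Kptn (-0.93, limma adjusted p 0.0106) and Nprl2 lower. Mios and Depdc5 lost their calls with the length trend removed (0.89 and 0.80, limma adjusted p 0.0579 and 0.137). Mios lost its call also without NL 2, NL 4, c-MYC 2 (limma adjusted p 0.119) or c-MYC 3, and Depdc5 without NL 2, NL 3, NL 4, c-MYC 1, c-MYC 2 (limma adjusted p 0.148) or c-MYC/FOXO1AAA 2. Kptn lost its call with equal FPKM totals (-0.01) and with quantile normalization (-0.74). Between the tumors Castor2, of an arginine sensor family, rose by 2.89 (adjusted p 0.000236 by limma, SE 0.36) and Nprl3 by 1.16 (adjusted p 0.00303 by limma, SE 0.13).

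Among the RAG GTPases, which bring mTORC1 to the lysosome, Rragd rose from 0.342 ± 0.0615 FPKM in NL (SD, n = 4) to 3.51 ± 1.86 (n = 3) in c-MYC (limma adjusted p 2.44e-05). It reached 8.93 ± 0.591 (n = 3) in c-MYC/FOXO1AAA, where the further step of 1.48 was just past the threshold (limma adjusted p 0.0487) and was lost when any library other than NL 2 or c-MYC 3 was left out, being 1.10 without c-MYC 1, and with the length trend removed (1.44, limma adjusted p 0.0608). Rragb held 0 or 1 read per library in NL and 4 to 33 in c-MYC (0.391 ± 0.379 FPKM, n = 3), with c-MYC 2 the highest (0.828 FPKM). It reached 5.86 ± 0.389 (n = 3) in c-MYC/FOXO1AAA, a step of 4.33 between the tumors (limma adjusted p 0.000213). With so few reads the size of this step depends on the prior count, and it ran from 2.33 to 5.09 over the alternatives. Lamtor4, of the lysosomal anchor of the RAGs, fell by 2.15 in c-MYC (limma adjusted p 1.54e-05), and Fnip1, a folliculin partner, fell by 1.19 between the tumors (limma adjusted p 0.00555).

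Among 11 upstream kinase genes, 2 were called higher and 1 lower in c-MYC, against 24.5% and 23.6% of all genes. Between the tumors 3 were called higher and 1 lower with FOXO1AAA, against 15.9% and 12.7% of all genes. The AMPK catalytic genes diverged. Prkaa1 rose from 3.31 ± 0.612 FPKM in NL (SD, n = 4) to 11.4 ± 0.721 (n = 3) and 28.2 ± 5.19 (n = 3), with log2 fold changes of 1.80 (limma adjusted p 4.72e-05) and 1.29 (limma adjusted p 0.0054), while Prkaa2 fell by 2.07 in c-MYC (limma adjusted p 0.000119). Prkab2, of its regulatory subunit, rose by 2.04 (limma adjusted p 0.00036). Between the tumors Akt1, of a kinase that restrains TSC2, rose from 36.4 ± 5.09 to 101.4 ± 10.3 FPKM (SD, n = 3 each), or by 1.48 on the log2 scale (limma adjusted p 9.58e-05).

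Of the 16 mTORC1 effectors, 5 were higher and 3 lower in c-MYC, against 24.5% and 23.6% of all genes. Between the tumors 1 was called, Tfeb, a lysosomal transcription factor (-0.94, limma adjusted p 0.0156). Its call was lost with equal FPKM totals (-0.77, limma adjusted p 0.164) and with a 2-fold threshold. It was lost as well without c-MYC 1 (-0.88) or c-MYC/FOXO1AAA 1 (-0.91). Eef2k, the kinase that slows elongation, rose from 3.33 to 13.2 FPKM in c-MYC (limma adjusted p 4.58e-06). Eif4e rose from 64.0 ± 6.43 FPKM (SD, n = 4) to 152.6 ± 12.6 (n = 3) in c-MYC and stood at 160.6 ± 4.21 (n = 3) in c-MYC/FOXO1AAA. The other 4E-BP genes went down in c-MYC. Eif4ebp2 fell by 1.08 (limma adjusted p 0.00271), a call lost with equal FPKM totals (-0.15) and with quantile normalization (-0.33), and Eif4ebp3 by 2.72 (limma adjusted p 0.00039). Ulk1, the autophagy kinase that mTORC1 inhibits, fell by 1.58 (limma adjusted p 1.69e-05), which became -0.66 (limma adjusted p 0.398) with equal FPKM totals. Rps6kb1, the gene of p70S6K, did not pass, at 0.72 (limma adjusted p 0.215) and -0.49 (limma adjusted p 1).

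Of the 5 mTORC2 effectors, 3 were higher and 1 lower in c-MYC, against 24.5% and 23.6% of all genes. Ndrg1, whose product SGK1 phosphorylates, rose by 3.33 (limma adjusted p 1.57e-05), Prkca by 2.05 (limma adjusted p 0.000591) and Sgk3 by 1.65 (limma adjusted p 1.13e-05). Between the tumors Prkca fell from 5.39 ± 0.468 to 0.585 ± 0.239 FPKM (SD, n = 3 each; log2 fold change -3.27, limma adjusted p 2.31e-05) and Sgk2 from 21.1 ± 5.61 to 0.822 ± 0.880 (-5.20, limma adjusted p 6.05e-05), while Sgk1 rose by 1.97 (limma adjusted p 0.000294).

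**Figure D5:**
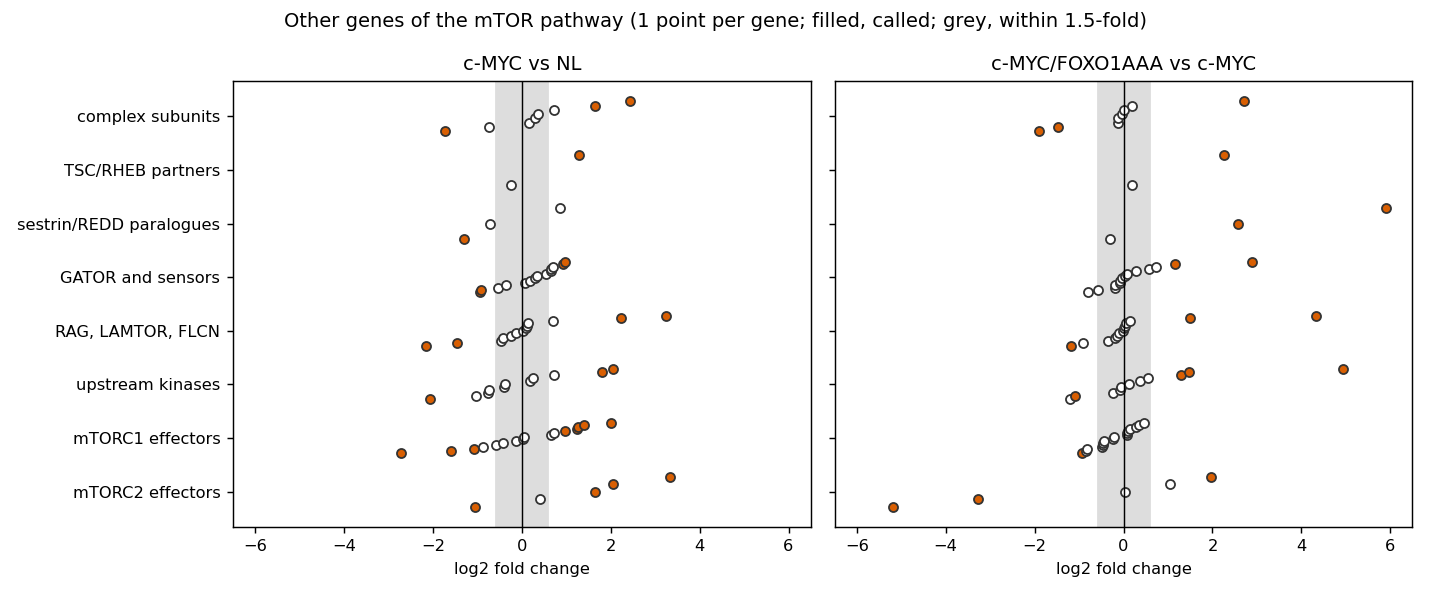
Log2 fold change of the 72 other genes of the pathway (1 point per gene), by list, in c-MYC relative to NL and with FOXO1AAA relative to c-MYC alone. Filled points passed limma treat at an adjusted p under 0.05, and the grey band marks changes within 1.5-fold. Called genes lie on both sides in 6 of 8 lists in c-MYC relative to NL and in 4 of 8 between the tumors. Between the tumors Ddit4l (5.90) is the highest point and Sgk2 (-5.20) the lowest.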

How the data were processed

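RNA-Seq had been performed on 10 mouse liver samples (NL, 4; c-MYC, 3; c-MYC/FOXO1AAA, 3), grouped by their labels. The authors checked reads with FastQC 0.11.7, counted them per gene on GRCm38 and deposited log2 FPKM values; how the FPKM were computed and whether counting used strand are not given in the sources used here. Solving for a prior count of 2 returned whole reads (tolerance 0.004) with a single length for 97.53% of 16697 entries, 13.12 to 20.55 M reads per library; 372 of 17069 rows had no symbol, and 0 columns of sample values were left unused. Few reads limit Mlst8, Ddit4 in NL and the low paralogues most.

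The log2 values, as deposited, were tested with limma 3.58.1 (R 4.3.3, statmod 1.5.0): treat, 2-sided, fold above 1.5, trend and robust, all 10 libraries, genes with at least 1 FPKM in at least 3 libraries, and Benjamini-Hochberg adjusted p under 0.05. No pseudocount was added beyond the prior count. On simulated data for c-MYC/FOXO1AAA relative to c-MYC, 13467 genes were tested. There, 94 of 98 genes changed 4-fold were called, 4 of 98 changed 2-fold and 0 unchanged genes. In the measured libraries, log2 fold changes near 1 between the tumors were called for Tfeb (-0.94, limma adjusted p 0.0156) and Nprl3 (1.16, limma adjusted p 0.00303). They were not called for Rictor (1.02, limma adjusted p 0.0809) and Ndrg1 (1.04, limma adjusted p 0.269). How often changes near 2-fold are detectable in the measured libraries was not tested. Ratios were tested by exact permutation (scipy 1.17.1). Alternatives changed the pseudocount (0.1 or 1 FPKM), filter, scaling, threshold, variance model, samples, pairing and libraries, and a removal of the length trend was added after the data were seen.

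Members and lists were chosen with earlier results of these data known. All members are named; of the other pathway genes, the paralogues of members and up to 3 per list and comparison with the largest change among those called are named, and names outside that rule were chosen after their values were seen. A further gene that the rule names is not reported here. Likeness is the root mean square difference of centered log2 values.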

Additional observations from a re-analysis of the deposited data

How the results depend on the processing

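The calls of Ddit4 and Sesn1 between the tumors and against NL kept their direction and significance under each of 23 alternatives, with log2 fold changes of 2.63 to 3.23 and 2.19 to 2.62 between the tumors. Of the members' other alternative values, 25 changed sign, all among uncalled differences. With equal FPKM totals these were, in c-MYC relative to NL, Mtor 0.66, Rptor 0.39, Rictor 0.81 and Tsc1 0.53. Between the tumors they were Mtor 0.13, Mlst8 0.08 and Rheb 0.11. In c-MYC/FOXO1AAA relative to NL they were Mtor 0.80, Rptor 0.65, Tsc1 0.49 and Tsc2 0.89. With an equal median they were Tsc2 -0.01 in c-MYC relative to NL and Rptor -0.08 between the tumors. Outside the members, Sesn3 turned to 0.22 with equal FPKM totals in c-MYC relative to NL. Eif4ebp2 and Eif4e turned to -0.07 and -0.10 with an equal median between the tumors. Quantile normalization gave Mtor 0.17, Rptor -0.02 and Rheb 0.16 between the tumors and Mtor 0.17 and Tsc2 0.36 in c-MYC/FOXO1AAA relative to NL. With the length trend removed, chosen after seeing the data, Mtor was 0.07 and Rheb 0.03 between the tumors. Leaving out single libraries, Tsc2 ran from -0.05 to 0.15 in c-MYC relative to NL and from -0.38 to 0.02 in c-MYC/FOXO1AAA relative to NL, and between the tumors Mtor ran from -0.13 to 0.13 and Rptor from -0.09 to 0.27. The cause was not tested.

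Of the members, 1 was called in c-MYC relative to NL, and 6 with equal FPKM totals, 2 with quantile normalization, 7 without a fold-change threshold and 1 to 2 when single libraries were left out (2 without NL 1). Of all 14017 genes, 6740 were called there, 8956 with equal totals, 6598 with quantile normalization, 10432 without a threshold and 4612 with a 2-fold threshold. In c-MYC/FOXO1AAA relative to NL the 3 calls became 6 with equal totals and 8 without a threshold. Over all genes 8099 calls became 10228 and 11277 there. The 28 pathway calls in c-MYC relative to NL became 44 with equal totals, 55 without a threshold and 16 with a 2-fold threshold, and without a threshold the other comparisons had 35 and 57 in place of 19 and 34. Over all genes, calls went from 6740 to 10432 in c-MYC relative to NL and from 4016 to 7688 between the tumors without a threshold, and to 2280 between the tumors and from 8099 to 5211 in c-MYC/FOXO1AAA relative to NL with a mean of at least 5 FPKM, where fewer genes were tested. Mlst8, Rictor and Tsc1 have no value under that filter. The 4 ratio differences kept their direction and calls under the 13 alternatives run on them, with differences of at least 0.74 (Rictor/Rptor), from -1.06 to -0.33 (Tsc1/Tsc2), -0.66 to -0.37 (Eif4ebp1/Eif4e) and 1.31 to 1.96 (Eif4ebp1/Eif4ebp2).

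Same-numbered libraries of different groups did not deviate together (correlations from -0.0398 to 0.0272), so the numbers were not taken as pairs. With the replicate number as a block, 1, 2 and 3 members were called in the 3 comparisons, as without it, and Depdc5 (0.87, limma adjusted p 0.111), Mios (0.94, limma adjusted p 0.0953) and Rragd (1.48, limma adjusted p 0.0831) lost their calls.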
